A study of Mus musculus with 6 samples.

Results

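The transcription factors and cofactors of the granulosa cell described here are Foxl2, Runx1, Cbfb, Irx3, Irx5, Bhlhe41 and Cited4, or 7 of the 26251 genes listed over the 6 single cell libraries. They were taken by gene symbol and chosen with earlier results of these data known. The libraries came from E15.5 mouse gonads of 3 groups, with 2 libraries per group: control XY testes (Amh+/+; Inhbb+/+), dKO XY gonads (Amh-/-; Inhbb-/-), in which both alleles of the anti-Müllerian hormone gene and of the inhibin beta B gene are disrupted in all cells, and control XX ovaries (Amh+/+; Inhbb+/+). Both gonads of an embryo were pooled, the dissociated cells were frozen until the genotype was known and then thawed for 10x Genomics capture, and the study describes the libraries of a group as independent biological replicates. Of 68064 barcodes, 39350 cells passed the authors' filter, and the median depth of these cells lay between 18415 and 27124 UMIs (unique molecular identifiers, 1 per captured mRNA molecule) per library. Levels are given as CPM, the UMIs of a gene per 1000000 UMIs summed over all cells of one type in one library, with library 1 before library 2. They are not scaled for gene length and are compared within a gene only.

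Supporting cells surround the germ cells of the gonad and become Sertoli cells in the testis or granulosa cells in the ovary. FOXL2 is a forkhead factor that maintains the granulosa cell and keeps the Sertoli factor SOX9 low in the adult ovary. RUNX1 binds DNA with its partner CBFB, which does not bind DNA itself, and helps to keep the fetal granulosa cell in its state together with FOXL2. IRX3 and IRX5 are homeodomain factors of the Iroquois family that act in the contact between granulosa cells and germ cells. BHLHE41 is a basic helix-loop-helix repressor best known from the circadian clock, and CITED4 is a coactivator that binds CBP and p300 without binding DNA.

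The members lie on 5 chromosomes of GRCm38 in the GENCODE M21 annotation, and all are protein-coding. Foxl2 lies on chromosome 9 from 98955288 to 98958543, Runx1 on chromosome 16 from 92601466 to 92826149, Bhlhe41 on chromosome 6 from 145858243 to 145865558 and Cited4 on chromosome 4 from 120666572 to 120667820. Chromosome 8 holds Irx3 from 91798525 to 91802067, Irx5 from 92357625 to 92376286 and Cbfb from 105170674 to 105217989. Irx3 and Irx5 stand 556 kb apart, within one Iroquois cluster. Runx1 spans 224.7 kb and has a distal and a proximal promoter, which UMI counts per gene cannot tell apart. The RefSeq promoter table (GRCm38.p6) held 6 of the 7 members, Runx1 with both promoters. The 250 bases before the RefSeq start of Foxl2, of both Runx1 promoters, of Irx3 and of Bhlhe41 are shown because these genes carry the comparisons that follow. They were searched on both strands for a RUNX core (TGTGGT), a forkhead motif (TGTTTAC), an E-box (CACGTG) and a SOX motif (CATTGT), and matches are in capitals.
Foxl2 (chr9:98955357-98955606, plus strand): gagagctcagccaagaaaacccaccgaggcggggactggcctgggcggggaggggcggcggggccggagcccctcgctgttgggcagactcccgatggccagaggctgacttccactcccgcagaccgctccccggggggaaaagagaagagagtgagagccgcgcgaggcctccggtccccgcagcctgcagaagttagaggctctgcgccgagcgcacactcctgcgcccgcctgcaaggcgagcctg
Runx1 distal (chr16:92826075-92826324, minus strand): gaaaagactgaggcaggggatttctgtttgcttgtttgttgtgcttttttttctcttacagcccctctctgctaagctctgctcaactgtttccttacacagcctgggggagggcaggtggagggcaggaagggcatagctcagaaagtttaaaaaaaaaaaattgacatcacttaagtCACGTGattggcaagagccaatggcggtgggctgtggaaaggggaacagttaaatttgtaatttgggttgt
Runx1 proximal (chr16:92697330-92697579, minus strand): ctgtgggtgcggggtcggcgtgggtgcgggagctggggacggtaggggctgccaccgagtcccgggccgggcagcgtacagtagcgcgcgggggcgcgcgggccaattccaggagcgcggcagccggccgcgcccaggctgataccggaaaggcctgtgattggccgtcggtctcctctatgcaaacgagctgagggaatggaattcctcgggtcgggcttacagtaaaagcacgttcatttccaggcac
Irx3 (chr8:91801655-91801904, minus strand): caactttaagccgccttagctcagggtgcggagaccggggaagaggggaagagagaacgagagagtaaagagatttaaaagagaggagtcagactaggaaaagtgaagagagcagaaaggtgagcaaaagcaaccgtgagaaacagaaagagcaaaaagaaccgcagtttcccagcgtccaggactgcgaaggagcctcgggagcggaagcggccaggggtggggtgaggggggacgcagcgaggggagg
Bhlhe41 (chr6:145865421-145865670, minus strand): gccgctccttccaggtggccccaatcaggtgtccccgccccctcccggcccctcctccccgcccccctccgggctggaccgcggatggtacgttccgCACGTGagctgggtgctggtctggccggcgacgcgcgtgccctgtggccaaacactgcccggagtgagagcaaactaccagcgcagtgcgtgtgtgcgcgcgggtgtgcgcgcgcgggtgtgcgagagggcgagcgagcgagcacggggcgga

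The E-box, the kind of letters that BHLHE41 itself can bind, was the one motif found. It lay 71 bases before the start of distal Runx1 and 153 bases before that of Bhlhe41, and 6.02% of the 32851 promoters of this length in the table hold it. The RUNX core is held by 14.05%, the SOX motif by 10.7% and the forkhead motif by 3.17% of them, and none of these was found in the windows of the members. The windows of Foxl2 (70.8% G and C), Bhlhe41 (73.6%) and proximal Runx1 (67.6%) were rich in G and C beside a median of 52.4% over all promoters, while the distal Runx1 window held 45.6%. Such matches describe letters and not bound sites. The RefSeq and GENCODE starts differ. By the GENCODE positions above, the windows of Foxl2 and Irx3 lie inside the gene and those of Bhlhe41 and distal Runx1 in part. These windows may thus hold transcribed bases.

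The labels were first read against the deleted genes and the cell type markers. There were 259 and 529 supporting cells in the control XY libraries, 1299 and 968 in those of dKO XY and 3002 and 1185 in those of control XX. In these cells Amh stood at 2040 and 1922 CPM (control XY), 17.9 and 15.6 CPM (dKO XY) and 1.36 and 1.44 CPM (control XX). Inhbb stood at 162 and 185 CPM, 41.5 and 50.6 CPM, and 37.4 and 25.5 CPM in the same order. None of the 11 Sertoli and 8 granulosa markers was at 0 in XY supporting cells. Supporting cells were clustered without the members and the listed genes. Before they were divided into subclusters, cells with a high level of the germ cell gene Sycp3 or the interstitial gene Tcf21 were left out, which left 201 and 431 control XY, 1177 and 895 dKO XY and 2740 and 916 control XX cells. Sertoli-like subclusters held 190 and 407 control XY and 678 and 422 dKO XY cells. The dKO XY cells of the other subclusters, less 3 and 5 cells of a subcluster named from germ cell markers, were 496 and 468 cells. They are called feminized here after the study's name, and the granulosa-like subcluster of control XX held 1310 and 453 cells. The feminized set is wider than the study's. It includes 19 and 4 dKO XY cells of that granulosa-like subcluster and 47 and 17 of an unnamed one. Both subclusters were mostly control XX, and the study counted dKO XY cells of its XX supporting clusters apart from its feminized cells. The 8 granulosa markers summed to 3917 and 4112 CPM in feminized cells, 5712 and 5488 CPM in granulosa-like cells and 992 and 996 CPM in control XY Sertoli-like cells. The 11 Sertoli markers summed to 1240 and 1119 CPM in feminized cells, 410 and 515 CPM in granulosa-like cells and 13162 and 11580 CPM in control XY Sertoli-like cells. The data went against this name in part. Most feminized cells (430 and 447) lay in 1 subcluster in which, against the other supporting cells, 6 of 6 Leydig, 7 of 8 interstitial, 2 of 8 granulosa and 0 of 11 Sertoli markers were raised, so that the marker rule would have named it Leydig-like. Its dKO XY cells had 375 and 379 CPM of the 6 Leydig markers and 653 and 640 CPM of the 8 interstitial markers, beside 694 and 905 CPM and 4963 and 4872 CPM in interstitial cells of dKO XY. Among the Sertoli-like cells, a subcluster of 621 cells had 5 of 6 germ cell markers raised beside 11 of 11 Sertoli markers. The part of these other transcripts in the members' levels was not tested. Among all kept cells, 175 barcode sequences occurred in more than 1 library.

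In dKO XY supporting cells 6 members rose and Cbfb fell. Runx1 and Irx3 changed most, by factors of 31.0 and 30.5, followed by Irx5 (a pooled ratio of 12.3 over 2 control XY UMIs), Foxl2 (8.62-fold), Bhlhe41 (3.57-fold) and Cited4 (2.83-fold). All genes tested served as the background: 9.72% of 15946 rose and 6.72% fell in this comparison (edgeR quasi-likelihood test, adjusted p under 0.05 by Benjamini-Hochberg), and the median log2 fold change was 3.11 over the 7 members and 0.016 over all genes. Since the members were chosen with earlier results of these data known, their excess over this background is a description and not a test. In sums over cells, more cells of a kind and more RNA per cell cannot be told apart.

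Supporting cells of control XY held Runx1 at 2.20 and 2.84 CPM, those of dKO XY at 72.4 and 87.5 CPM and those of control XX at 176 and 129 CPM. Its change from control to dKO XY was 4.95 on the log2 scale (SE 0.24, adjusted p = 3.09e-06, edgeR). The dKO XY libraries thus sat above both control XY libraries and below both control XX libraries. Irx3 measured 1.59 and 0.968 CPM in control XY supporting cells, 35 and 37.7 CPM in those of dKO XY and 371 and 438 CPM in those of control XX. Its log2 change in dKO XY was 4.93 (SE 0.22, adjusted p = 2.37e-06, edgeR), and both dKO XY libraries lay below both control XX libraries. Foxl2 went from 8.92 and 2.52 CPM in control testes to 29.6 and 58.6 CPM in dKO XY gonads, against 212 and 193 CPM in ovaries, with a log2 change of 3.11 (SE 0.47, adjusted p = 0.0018, edgeR). The change of Foxl2 was 4.13 without control XY replicate 1, 2.31 without control XY replicate 2 and 2.50 without dKO XY replicate 2, and the call was held in each. Without the cluster described below that is almost wholly dKO XY, Foxl2 was at 11.5 and 22.4 CPM in dKO XY and 1.04 and 0.265 CPM in control XY, and this change was 4.94.

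Irx5, the neighbour of Irx3, was seen only in traces in supporting cells of XY gonads. Control XY supporting cells held 0 and 2 UMIs of it and dKO XY cells 35 and 41, or 0.933 and 1.14 CPM, against 17.7 and 17.7 CPM in control XX. The pooled ratio of dKO to control XY was 12.3, with a 95% counting interval from 3.28 to 103 that covers counting error only (adjusted p = 0.00339, edgeR, or 0.0706 without the mostly dKO XY cluster). Bhlhe41 went from 14.4 and 18.2 CPM in control testes to 61.6 and 55.4 CPM in dKO XY gonads, against 135 and 180 CPM in ovaries (log2 change in dKO XY 1.83, SE 0.17, adjusted p = 1.14e-04, edgeR). Cited4 went from 10.4 and 14.3 CPM to 42.1 and 28.7 CPM, against 163 and 210 CPM in ovaries (1.5, SE 0.22, adjusted p = 0.00146). Cbfb, expressed in every cell type, went the other way, from 46.3 and 56.3 CPM in control XY to 36.3 and 35.5 CPM in dKO XY and 28.9 and 28.4 CPM in control XX (-0.51, SE 0.13, adjusted p = 0.0211), and the call on Cbfb was lost without control XY replicate 2 (0.219), dKO XY replicate 1 (0.0714) or dKO XY replicate 2 (0.0795).

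**Figure D1:**
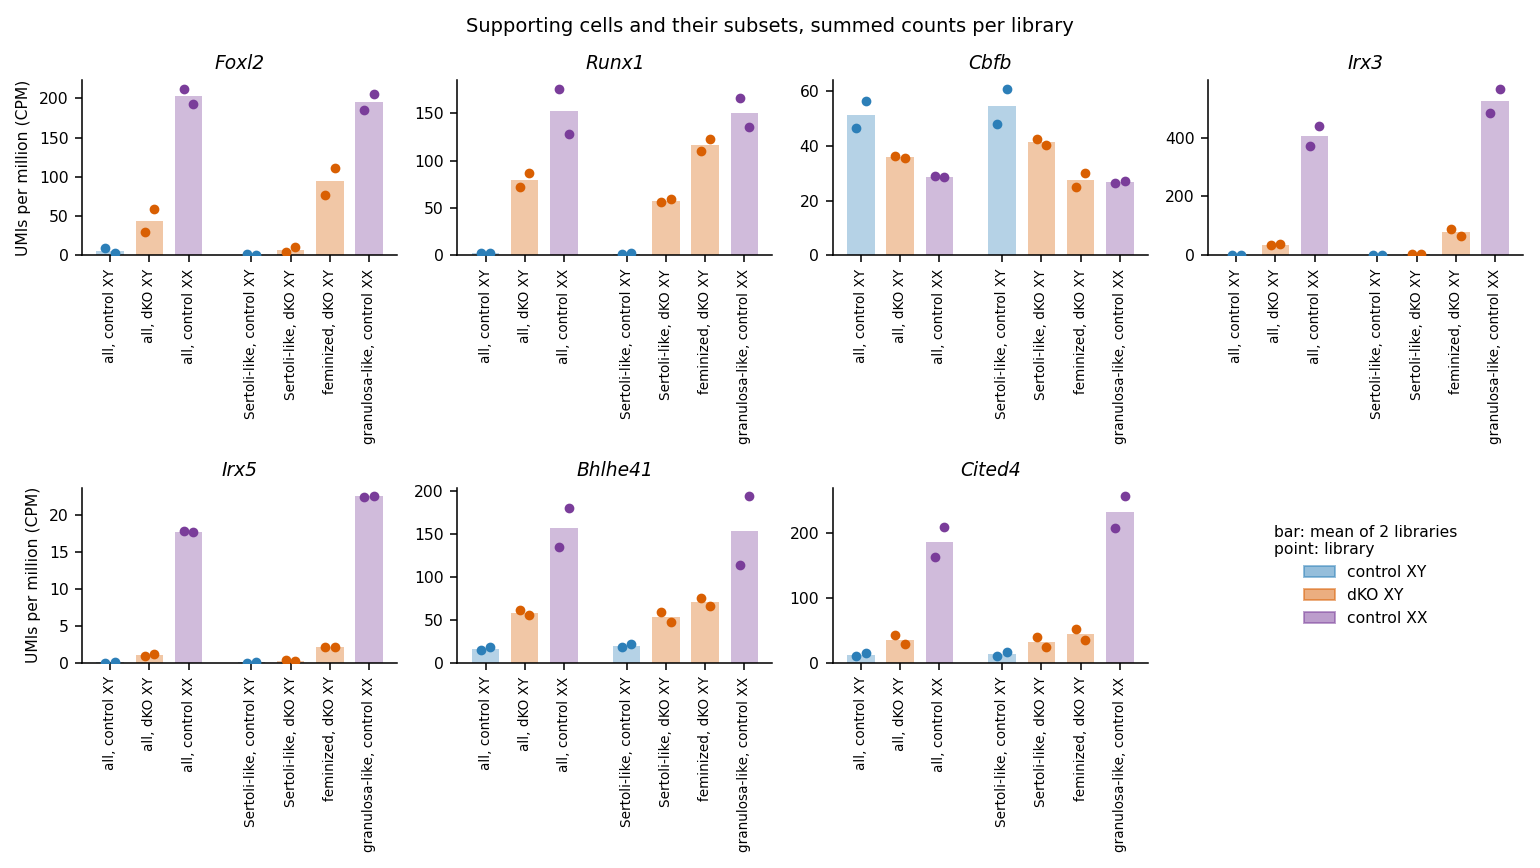
Levels of the 7 members in CPM (vertical axis, from 0, own scale per gene) in all supporting cells and in their subsets. Bars are means of 2 libraries and points are libraries. Runx1 stood at 56.1 and 59.5 CPM in dKO XY Sertoli-like cells, where Irx3 stood at 3.48 and 5.30 CPM.

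Control XX against control XY supporting cells gives the scale of these changes. The same 6 members were higher in control XX and Cbfb was lower, where 25.1% of all genes rose and 23.7% fell. The log2 differences were 8.35 for Irx3 (SE 0.23), 5.83 for Runx1 (SE 0.24), 5.25 for Foxl2 (SE 0.49), 3.84 for Cited4 (SE 0.23), 3.20 for Bhlhe41 (SE 0.18) and -0.89 for Cbfb (SE 0.13), with adjusted p from 1.46e-08 for Irx3 to 2.62e-04 for Cbfb (edgeR). Irx5, with 2 UMIs in all control XY supporting cells, had a pooled ratio of 209.8 (95% counting interval 58.0 to 1734). The log2 difference of Foxl2 was 6.26 without control XY replicate 1, 4.45 without control XY replicate 2 and 8.49 without the mostly dKO XY cluster. The comparison shares its control XY libraries with the previous one. Set directly against control XX, dKO XY supporting cells were lower in 6 members and higher in Cbfb, where 19.7% of all genes fell and 21.3% rose. Runx1 was the closest of those that fell, with -0.88 (SE 0.17, adjusted p = 0.00279), followed by Bhlhe41 with -1.37 (SE 0.16), Foxl2 with -2.14 (SE 0.39, or -2.73 without dKO XY replicate 2 and -3.55 without the mostly dKO XY cluster), Cited4 with -2.34 (SE 0.21), Irx3 with -3.42 (SE 0.16) and Irx5 with -4.03 (SE 0.23). Over the alternatives Irx5 ranged from -4.84 to -3.88. Cbfb differed by 0.38 (SE 0.12, adjusted p = 0.0332), a call lost with the replicate number as a block (0.0659), without either dKO XY or either control XX replicate (0.0928 to 0.132) and with cells of over 1500 genes (0.0509).

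Supporting cells of the dKO XY gonad were then divided. In cells that clustered as Sertoli-like, 5 of the 7 members still rose against control XY Sertoli-like cells, where 8.51% of all 14741 genes rose. Runx1 rose from 1.66 and 2.07 CPM to 56.1 and 59.5 CPM (log2 change 4.87, SE 0.20, adjusted p = 4.44e-07, edgeR), as large a change as over all supporting cells. Bhlhe41 rose from 17.9 and 22.1 CPM to 59.4 and 47.9 CPM (1.36, SE 0.23, adjusted p = 0.00225), and Cited4 from 10.8 and 16.7 CPM to 40.5 and 25 CPM (1.17, SE 0.27, adjusted p = 0.0134, or 0.0982 without control XY replicate 1). Of the 17 genes of the Sertoli list, 6 rose and 5 fell in these cells, where 5.66% of all genes fell (median log2 change -0.13 beside 0.0059 over all genes). Sox9 was at 498 and 475 CPM beside 430 and 411 CPM in control XY (adjusted p = 0.665, edgeR) and Dhh at 232 and 186 CPM beside 249 and 234 CPM (adjusted p = 0.23), while Hsd17b1 fell from 342 and 290 CPM to 30.9 and 17.7 CPM and Defb19 from 4531 and 3887 CPM to 2340 and 1965 CPM. Sox9, Dhh and Defb19 were among the Sertoli markers that named these subclusters, so their levels there are not independent of that choice. Of the members, Foxl2 and Irx3 also passed the test but stayed low. Foxl2 was at 4.09 and 10.2 CPM against 1.16 and 0.165 CPM (3.75, SE 0.71, adjusted p = 0.00451), and Irx3 at 3.48 and 5.30 CPM against 1.82 and 0.992 CPM (1.71, SE 0.37, adjusted p = 0.0097). Both calls were lost without control XY replicate 2 (adjusted p = 0.115 and 0.204), and the change of Foxl2 was then 2.55. It was 5.33 without control XY replicate 1, 2.94 without dKO XY replicate 2, 4.71 without high doublet scores and 6.06 with subclusters drawn from principal components of the supporting cells alone. That last setting compared a different set of cells. In it a subcluster of 811 cells, with 10 of 11 Sertoli and 5 of 6 germ cell markers raised, was named from germ cell markers and not as Sertoli-like. Cbfb (-0.45, SE 0.14, adjusted p = 0.0524) and Irx5 (adjusted p = 0.496, 0.329 and 0.173 CPM in dKO XY) did not pass, though Cbfb did in 3 alternatives, with adjusted p from 0.0359 without control XY replicate 1 to 0.0467 with the replicate number as a block.

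In the feminized cells of the same libraries, Foxl2 stood at 77.0 and 112 CPM, Irx3 at 90.3 and 67.2 CPM and Runx1 at 110 and 122 CPM. All 3 were higher there than in Sertoli-like dKO XY cells, with the widest gaps for Foxl2 and Irx3 and the narrowest for Runx1. This is a description, since the clusters were drawn from these cells. Feminized levels average over unlike subclusters, among them the few dKO XY cells of mostly control XX subclusters. Compared with granulosa-like cells of control XX, 5 members were lower in feminized cells, where 13.6% of all genes fell. Runx1 was at 166 and 135 CPM in granulosa-like cells and differed by -0.23 (SE 0.14, adjusted p = 0.217, edgeR). Cbfb differed by 0.19 (SE 0.14, adjusted p = 0.33). Neither passed the test, which does not show that the levels are alike. Foxl2, at 185 and 205 CPM in granulosa-like cells, differed by -0.90 on the log2 scale (SE 0.32, adjusted p = 0.0498), a call lost with DESeq2 (0.432) and without either control XX replicate (0.112 and 0.156). Bhlhe41 was at 75.8 and 66.3 CPM against 114 and 194 CPM (-0.97, SE 0.21, adjusted p = 0.00477). The Iroquois genes and Cited4 were furthest from the level of granulosa-like cells. Irx3 was at 484 and 566 CPM in granulosa-like cells (-2.60, SE 0.20, adjusted p = 4.21e-06), Irx5 at 2.13 and 2.12 CPM against 22.4 and 22.5 CPM (-3.26, SE 0.23, adjusted p = 2.6e-06) and Cited4 at 51.9 and 35.4 CPM against 209 and 257 CPM (-2.27, SE 0.25, adjusted p = 4.88e-05). A second control XX subcluster of 1188 and 387 cells, which the markers did not name, held Irx3 at 228 and 238 CPM, Irx5 at 12.2 and 11.2 CPM and Cited4 at 108 and 151 CPM, all lower than in the granulosa-like cells. With both subclusters as the reference, the differences were -2.25 for Irx3, -2.96 for Irx5 and -2.002 for Cited4, and all 5 calls were held.

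**Figure D2:**
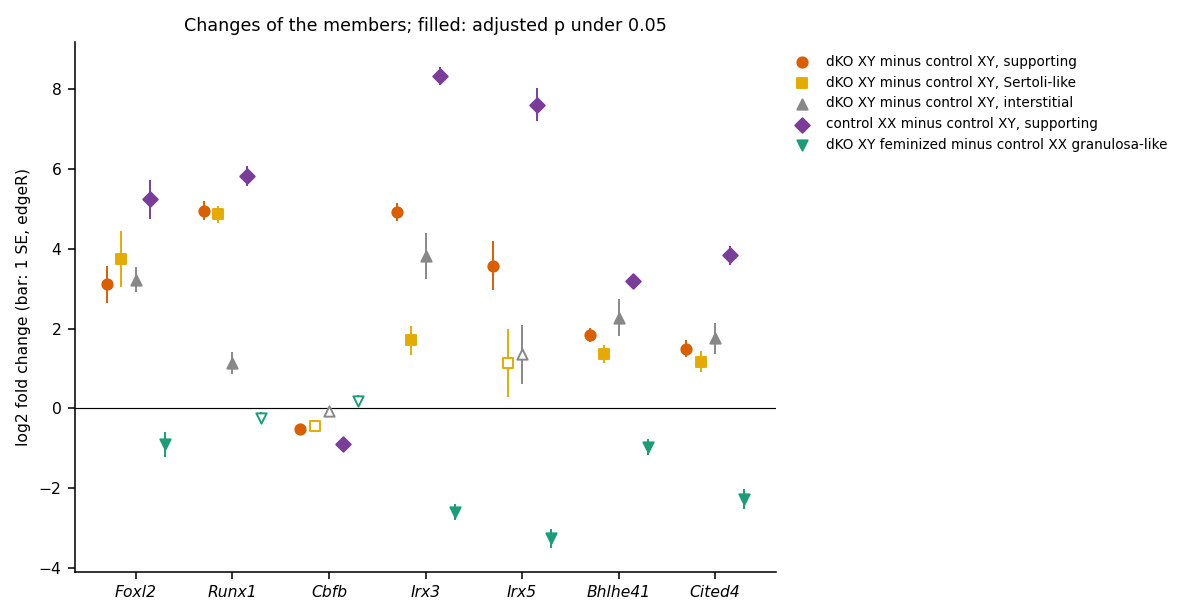
Log2 fold changes of the members (vertical axis, edgeR, bars of 1 SE) in 5 comparisons, filled where the adjusted p was under 0.05. Runx1 changed by 4.95 in all supporting and 4.87 in Sertoli-like cells and by 1.14 in interstitial cells, and Cbfb lies below 0 in the comparisons of supporting cells with control XY. The values of Irx5 rest on few UMIs in control XY.

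The supporting class held 3 clusters that the groups filled differently. The cluster of the ovary held 2996 and 1177 control XX cells, with 77 and 25 from dKO XY and none from control XY. These few dKO XY cells had Irx3 at 349 and 328 CPM, beside 372 and 441 CPM in control XX of the same cluster, and carried 685 of the 1314 and 285 of the 1349 Irx3 UMIs of all dKO XY supporting cells. Runx1 was at 131 and 131 CPM in them. A second cluster held 245 and 511 control XY and 783 and 491 dKO XY cells, and Irx3 was at 4.92 and 7.08 CPM and Runx1 at 56.9 and 64.8 CPM in its dKO XY cells. The levels of dKO XY supporting cells are thus averages over unlike clusters, and these values are a description.

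The third supporting cluster was almost wholly dKO XY, with 439 and 452 dKO XY cells beside 14 and 18 control XY and 6 and 8 control XX cells. In its dKO XY cells Irx3 was at 46.4 and 62.0 CPM. Foxl2 was at 73.5 and 110 CPM in dKO XY and at 128 and 93.3 CPM in the few control XY cells, where Runx1 was at 13.8 and 26.7 CPM, Irx3 at 3.95 and 8.0 CPM and Bhlhe41 at 0. These few cells held 65 of the 73 and 35 of the 39 Foxl2 UMIs found in all control XY supporting cells. Without this cluster, which was set aside only after its make-up was known, Runx1 changed by 5.03, Irx3 by 4.6, Bhlhe41 by 1.73, Cited4 by 1.46 and Cbfb by -0.42 in dKO XY supporting cells, and all 5 stayed past the threshold.

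Genes of the same families and of the supporting programmes were counted from lists, also chosen with earlier results of these data known. Their counts are thus a description. Of 17 relatives of the members, 11 were measured well enough to be tested, and 1 rose (Irx2) and 1 fell (Cited1) in dKO XY supporting cells, shares close to the 9.72% and 6.72% of all genes. Irx2, another Iroquois gene, had no UMI in either control XY library and 0.640 and 0.559 CPM in dKO XY, at least 4.74-fold higher against a floor of 3 UMIs over the group (adjusted p = 0.0108, or 0.11 without control XY replicate 2), and it was at 0.304 and 0.467 CPM in control XX. Cited1, a coactivator related to Cited4, went from 393 and 361 CPM in control testes to 172 and 115 CPM in dKO XY gonads, against 20.1 and 18.9 CPM in ovaries (-1.39, SE 0.18, adjusted p = 5.82e-04). The median over the 11 was -0.25. Of 20 other genes of the granulosa programme 14 rose and none fell, with a median log2 change of 1.86. They include Rspo1 (5.15, SE 0.23), a WNT pathway ligand needed for the ovary, the guanine nucleotide-binding subunit Gng13 (5.56, SE 0.30), the zinc finger factor Sp5 (4.90, SE 0.29), the BMP ligand gene Bmp2 (3.66, SE 0.19), and Msx1, a homeobox gene, whose pooled ratio over 3 control XY UMIs was 51.8 (17.6 to 252). The other 6 did not pass the test (edgeR), among them Fst, an activin-binding protein (2.48, SE 0.89, adjusted p = 0.0897). Of 17 genes of the Sertoli programme 7 fell, among them the steroid enzyme Hsd17b1 (-3.99, SE 0.30), the FSH receptor Fshr (-2.55, SE 0.50), Defb19 (-1.39, SE 0.17) and Sox8 (-1.02, SE 0.13), and 3 rose, among them the growth factor gene Fgf9 (2.29, SE 0.18) and the tight junction gene Cldn11 (1.37, SE 0.15), with a median of -0.18. In Sertoli-like dKO XY cells 14 of 19 granulosa genes tested rose and none fell, while 6 of 17 Sertoli genes rose and 5 fell. In this comparison 8.51% of all genes rose and 5.66% fell.

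The members were then followed through the other cell types. For Foxl2, control XX supporting cells were highest among 22 pairs of cell type and group, followed by dKO XY supporting cells and control XX interstitial cells (32.0 and 18.1 CPM), whose libraries overlapped each other. Below these came control XX germ cells at 12.8 and 13.1 CPM, and the pairs that followed overlapped their neighbours down to dKO XY Leydig cells. Foxl2 was at 0 in control XY epithelial cells, immune cells and pericytes. For Runx1, immune cells of all groups were highest, between 154 and 227 CPM, and overlapped control XX supporting cells. RUNX1 is a factor of blood cell formation. Epithelial cells of dKO XY (90.7 and 81.6 CPM), supporting cells of dKO XY and epithelial cells of control XX (104 and 48.3 CPM) followed, each overlapping the next. Interstitial cells of control XX and epithelial cells of control XY (17.4 and 28.4 CPM) came after these and overlapped each other. Supporting cells of control XY, at 2.20 and 2.84 CPM, were next to last in the order of Runx1, and overlapped the dKO XY endothelial cells above them. For Irx3, control XX supporting cells were highest. Epithelial cells of control XX followed, between 63.1 and 132 CPM, and overlapped the endothelial cells of control XX. Epithelial cells of dKO XY, between 44.3 and 50.2 CPM, lay above dKO XY supporting cells. Endothelial cells of every group held Irx3, with 31.0 and 23.9 CPM in control XY, 32.2 and 29.5 CPM in dKO XY and 79.3 and 82.8 CPM in control XX. Endothelial cells also held Irx5, at 16.8 to 19.2 CPM in control XX, and overlapped control XX supporting cells in it. Among the 22 pairs Bhlhe41 and Cited4 were highest in control XX supporting cells. Erythroid cells, 18 and 11 of them in control XX, were left out of this order, so a higher level there would not be seen. Bhlhe41 in immune cells lay between 11.2 and 24.6 CPM. Cbfb differed least, from 23.0 to 64.1 CPM over these 22 pairs, with germ cells lowest.

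**Figure D3:**
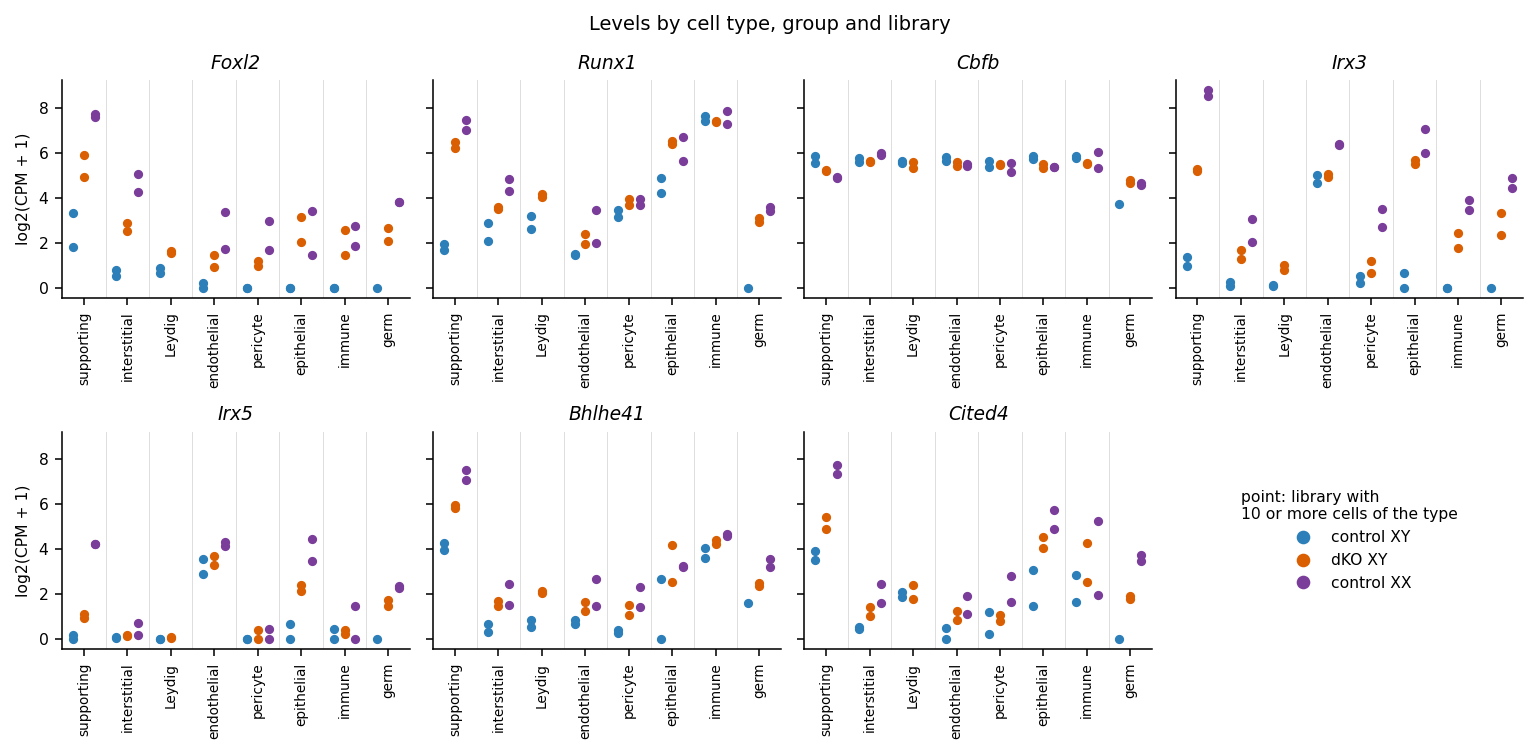
Levels of the members as log2(CPM + 1) (vertical axis, shared) by cell type and group, 1 point per library with 10 or more cells of the type. Runx1 is high in immune cells of every group and Irx3 in endothelial cells of every group, while Foxl2 is highest in supporting cells of control XX.

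Changes in dKO XY were tested in these types in the same way. In interstitial cells Foxl2 (log2 change 3.22, SE 0.31), Irx3 (3.82, SE 0.57), Bhlhe41 (2.28, SE 0.47), Cited4 (1.76, SE 0.40) and Runx1 (1.14, SE 0.27) rose, with adjusted p from 0.00268 for Foxl2 to 0.0475 for Runx1, where 4.09% of all genes rose. The change of Irx3 was 3.19 without control XY replicate 1, 4.99 without control XY replicate 2 and 3.12 without high doublet scores, and that of Bhlhe41 was 3.08 without control XY replicate 2. The levels were low, with Foxl2 at 4.83 and 6.27 CPM and Irx3 at 1.39 and 2.23 CPM in dKO XY. The interstitial class held 3 clusters that the groups filled differently. The one that held 99.5% and 99.9% of control XX interstitial cells took 5.09% and 3.72% of those of control XY and 13.99% and 10.85% of those of dKO XY. In the other clusters together, Foxl2 (3.31, adjusted p = 0.0055), Irx3 (3.95, adjusted p = 0.0103), Runx1 (1.502, adjusted p = 0.0147), Bhlhe41 (2.45, adjusted p = 0.0188) and Cited4 (1.82, adjusted p = 0.022) rose in dKO XY, where 5.64% of all genes rose (edgeR). Within the cluster of control XX, where 0.0149% of all genes rose, no member passed. There the changes were 2.69 for Foxl2 (adjusted p = 0.408), 2.23 for Irx3 (0.762), 1.47 for Cited4 (0.807) and 0.57 for Bhlhe41 (0.983), and Runx1 was at 10.998 and 8.787 CPM in dKO XY beside 9.22 and 39.5 CPM in control XY (-1.30, adjusted p = 0.503). Beside these, the call on Runx1 was lost in 7 alternatives, the replicate block among them (0.0804), that on Cited4 in 4 and that on Bhlhe41 in 3. Transcripts of supporting cells that lie free in the suspension can enter other cells, and in the same interstitial cells the Sertoli gene Cst9 was at 22.6 and 24.4 CPM in dKO XY beside 7.53 and 17.5 CPM in control XY, and the granulosa gene Fst at 5.27 and 4.04 CPM beside 0.715 and 2.00 CPM. Their part in the rise of the members was not tested. In control XX interstitial cells all 7 members were higher than in control XY, where 12.0% of all genes rose, though the call on Cbfb was lost in 5 and that on Irx5 in 3 alternatives, and different clusters made up most of the class in the 2 groups. Within the cluster of control XX alone, where 4.97% of all genes rose, Foxl2 (30.3 and 18.1 CPM beside 0.55 and 0 CPM in control XY, adjusted p = 3.64e-05), Irx3 (6.97 and 2.91 CPM beside 0 and 0.315 CPM, adjusted p = 0.00176) and Cited4 (4.21 and 2.02 CPM beside 0.275 and 0.315 CPM, adjusted p = 0.00512) were higher. There Runx1 (-0.07, adjusted p = 0.946), Cbfb (-0.03, adjusted p = 0.922) and Bhlhe41 (1.46, adjusted p = 0.166) did not pass, and Irx5 was too low to be tested. Over the whole class Foxl2 stood at 32.0 and 18.1 CPM, Irx3 at 7.23 and 3.08 CPM and Fst at 27.6 and 8.69 CPM, while in control XX supporting cells the libraries held 212 and 193, 371 and 438, and 1224 and 1057 CPM of the same genes.

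In Leydig cells 4 of 6 members tested rose, namely Bhlhe41 (2.36, SE 0.29), Irx3 (3.41, SE 0.52), Runx1 (1.24, SE 0.20) and Foxl2 (1.45, SE 0.29), where 5.32% of all genes rose. Runx1 reached 16.9 and 15.53 CPM there from 5.15 and 8.17 CPM, and the other 3 stayed under 4 CPM. Transcripts of supporting cells free in the suspension can enter Leydig cells too, and their part in these rises was not tested. In epithelial cells Irx3, Cited4 and Runx1 rose, where 3.63% of all genes rose. Irx3 was at 1 UMI in all control XY epithelial cells and at 50.2 and 44.3 CPM in dKO XY (ratio 137, 95% counting interval 24.5 to 5419), Cited4 changed by 2.19 (SE 0.55) and Runx1 by 1.90 (SE 0.36). In these cells the 8 granulosa markers summed to 1350 and 1250 CPM in dKO XY beside 390 and 401 CPM in control XY, and the 8 interstitial markers to 1529 and 1885 CPM beside 6802 and 6869 CPM, and the part of this mix in the members' rise was not tested. In control XX epithelial cells Irx3, Irx5, Cited4 and Runx1 were higher than in control XY, where 2.57% rose. None of the members tested passed by edgeR in dKO XY endothelial cells (0.207% of all genes rose), immune cells (0.00884%) or pericytes (0.151%), and the lowest adjusted p among them was 0.236 for Irx3 in immune cells. At an unadjusted p under 0.05, 1, 2 and 2 members were higher, beside 4.06%, 2.62% and 2.63% of all genes. Some counts near 0 in control XY were higher in dKO XY. In endothelial cells Foxl2 had 24 UMIs against 1 (ratio 15.6, 95% counting interval 2.54 to 641). It had 31 against 0 in immune cells and 13 against 0 in pericytes. Irx3 had 30 against 0 in immune cells, and 11 against 3 in pericytes, where the interval reached below 1 (0.886 to 18.7). In immune cells, where its level was highest, Runx1 differed by -0.16 (SE 0.22, adjusted p = 0.956). In control XX endothelial cells Foxl2 (88 UMIs against 1, ratio 70.3, 95% counting interval 12.3 to 2808), Irx3 (1.63, SE 0.16) and Irx5 (1.16, SE 0.27) were higher than in control XY, where 1.59% of all genes rose. In control XX pericytes Foxl2 had 14 UMIs and Irx3 27, against 0 and 3 in control XY. Irx3 had 23 UMIs in control XX immune cells and 0 in those of control XY. The part of free transcripts in these differences was not tested.

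Whether the change in dKO XY differed between supporting and interstitial cells was tested with an interaction term. Runx1 changed more in supporting cells by 3.84 on the log2 scale (SE 0.20, adjusted p = 3.11e-06, edgeR) and Cbfb differed in the other direction (-0.50, SE 0.09, adjusted p = 0.0037), where 8.49% of all genes differed upward and 11.6% downward. For Foxl2 (-0.16, SE 0.55), Irx3 (1.17, SE 0.95), Irx5 (2.19, SE 1.45), Bhlhe41 (-0.46, SE 0.48) and Cited4 (-0.28, SE 0.42) the difference did not pass the test.

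Single cells were examined after each was thinned to 5000 UMIs at random, so that shares of cells with a UMI could be compared across depths, and no cell of these sets was shallower. In dKO XY Sertoli-like cells Runx1 was detected in 22.3% and 20.9% of cells and in control XY Sertoli-like cells in 1.05% and 0.983%. Foxl2 was detected in 1.62% and 3.32% and Irx3 in 1.03% and 1.66% of the same dKO XY cells, while Sox9 was detected in 82.6% and 82.2%. The share in cells that should lack these genes gives the background: dKO XY endothelial cells had Foxl2 in 1.56% and 1.60% and Runx1 in 2.34% and 0.80% of cells. In dKO XY Leydig cells the shares were 0.534% and 1.28% for Foxl2, 6.14% and 6.42% for Runx1 and 0.267% and 0.513% for Irx3. Leydig cells of control XY held more Runx1 (5.15 and 8.17 CPM) than supporting cells of control XY (2.20 and 2.84 CPM). Their share of Runx1 is thus not a background. Median depths were 34634 and 42807 UMIs in endothelial, 34314 and 37882 UMIs in Leydig and 25329 and 37003.5 UMIs in Sertoli-like cells of dKO XY. Runx1 in dKO XY Sertoli-like cells stood above its shares in endothelial and Leydig cells. The share of Foxl2 was close to that in endothelial cells in library 1 and above it in library 2, and that of Irx3 overlapped control XY Sertoli-like cells (1.58% and 0.737%). In feminized cells Runx1 was detected in 36.9% and 40.6%, Foxl2 in 26.6% and 36.3%, Irx3 in 17.5% and 19.4% and Sox9 in 36.1% and 22.4% of cells. Without thinning, Runx1 was seen in 60.2% and 71.8% of dKO XY Sertoli-like and 4.21% and 5.41% of control XY Sertoli-like cells.

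Counting the 6 members other than Cbfb per cell, none was seen in 84.9% and 83.6% of supporting cells from control testes, 43.3% and 37.7% of those from dKO XY gonads and 2.53% and 2.78% of those from ovaries. At least 3 were found in 57.4% and 60.5% of control XX supporting cells, 14.3% and 14.3% of feminized cells and 0.442% and 0.474% of dKO XY Sertoli-like cells. Of the Sertoli-like cells of dKO XY, 50% and 53.3% had none, against 85.3% and 81.8% in control XY. The transcripts seen most in them were Runx1, Bhlhe41 (22.4% and 22.3% of cells, 9.47% and 10.8% in control XY) and Cited4 (16.7% and 10.4%, 4.21% and 6.63% in control XY).

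Foxl2 and Sox9, which mark the ovarian and the testicular fate of the supporting cell, were found together in 66 of 1299 dKO XY supporting cells of library 1 (5.08%, Wilson 95% interval 4.01 to 6.41) and in 52 of 968 of library 2 (5.37%, 4.12 to 6.98). The product of their single shares was 7.08% and 10.2%, so both lay below it. In control XY supporting cells the pair was found in 2 of 259 (0.772%, 0.212 to 2.77) and 2 of 529 cells (0.378%, 0.104 to 1.37), also below the product of 1.85% and 0.806%. In control XX the pair was found in 14.7% and 16.2% of supporting cells and the product was 11.4% and 11.8%, so both lay above it. Among dKO XY cells with Foxl2, 43.1% and 26.0% had Sox9, and among those without Foxl2 62.4% and 55.5%. Among control XX cells the shares were 26.3% and 30.8% with Foxl2 and 12.8% and 13.0% without. The sides of the product were the same at 10000 UMIs, without thinning and with at least 2 UMIs of each gene. Of the dKO XY cells with both, 84.8% and 71.2% were feminized and 12.1% and 19.2% Sertoli-like cells, and 3.03% and 7.69% had a high doublet score beside 8.55% and 7.23% of all dKO XY supporting cells. Their median depth was 21372 and 41548 UMIs beside 24004 and 30909.5 UMIs in all dKO XY supporting cells, so they were deeper in library 2. Within feminized cells the observed share over the product was 1.18 and 0.970, and within Sertoli-like cells 0.881 and 0.869.

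Runx1 met Sox9 about as often as the product of the single shares, in 16.3% and 13.1% of dKO XY supporting cells against 16.6% and 15%. Irx3 and Sox9 met in 2.69% and 2.58% of cells, below a product of 4.91% and 5.71%, and Irx3 and the Sertoli ligand gene Dhh in 0.693% and 0.723%, below 3.28% and 3.72%. Foxl2 and Irx3 were found together in 2.39% and 3.82% of dKO XY supporting cells, above their product of 0.961% and 2.39%, and in 37.7% and 39.2% of control XX cells, where the product was 38.8% and 40.1%. Foxl2 and Runx1 were found together in 4.62% and 7.23% of dKO XY cells with a product of 3.25% and 6.27%. These shares are given without a test, since cells of 1 library are not replicates.

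**Figure D4:**
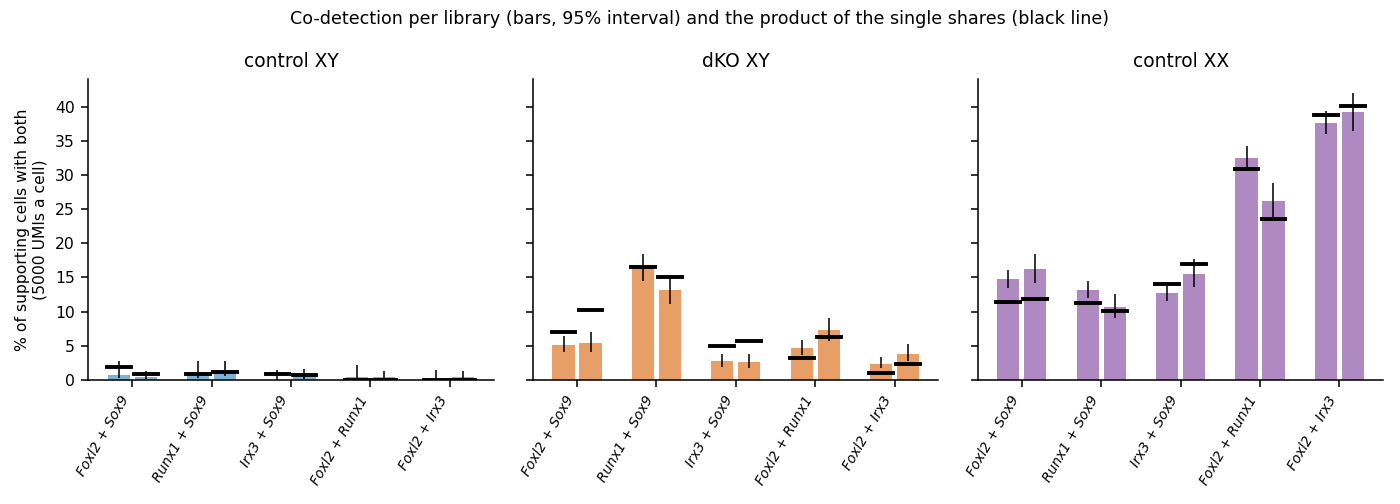
Share of supporting cells with both genes of a pair (vertical axis, percent, cells thinned to 5000 UMIs) per library, with Wilson 95% intervals for counting error, and the product of the single shares as a black line. Foxl2 with Sox9 lies below the line in dKO XY (5.08% and 5.37%) and above it in control XX (14.7% and 16.2%).

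The sums of cells with and without a Foxl2 UMI in each library tested which members go with Foxl2, with the library as a block. Foxl2 chose the cells and was not tested. In dKO XY, where 153 and 200 cells had Foxl2 and 1146 and 768 did not, 4 of the 6 other members were higher in cells with Foxl2, where 6.04% of all 12478 genes were. Irx3 was higher by 1.12 (SE 0.17, adjusted p = 9.36e-06, edgeR), Bhlhe41 by 0.75 (SE 0.14, adjusted p = 1.80e-04) and Runx1 by 0.50 (SE 0.13, adjusted p = 0.0078), and each of these calls was lost without dKO XY replicate 1 (0.0826, 0.0858 and 0.568). Irx5 passed as well (adjusted p = 0.0448), on 2 and 3 UMIs in cells with Foxl2 and 1 and 2 UMIs in the others, and this call was lost in 4 of 6 alternatives. Cited4 differed by 0.50 (SE 0.18, adjusted p = 0.0617, or 7.73e-04 with a difference of 0.63 at 10000 UMIs) and Cbfb by -0.54 (SE 0.21, adjusted p = 0.0816). In control XX, with 1680 and 624 cells that had Foxl2 and 1322 and 561 that did not, Bhlhe41 (1.11, SE 0.08, adjusted p = 6.93e-13) and Runx1 (0.33, SE 0.08, adjusted p = 0.00313) were higher, where 5.16% of all genes were, and the call on Runx1 was lost without control XX replicate 1 (0.052) or 2 (0.0867). Irx3 differed by -0.11 there (SE 0.07, adjusted p = 0.334), and Irx5 passed at 10000 UMIs alone (-0.68, adjusted p = 7.67e-04). The difference between the groups, a test chosen after the separate values were seen, was called for Irx3 (1.23, SE 0.19, adjusted p = 6.47e-06), Irx5 (3.40, SE 1.03, adjusted p = 0.0279) and Cited4 (0.59, SE 0.19, adjusted p = 0.0462), where 5.25% of all genes were higher in this difference. The call on Irx3 was held in all 6 alternatives, and those on Irx5 and Cited4 were lost in 4 of 6. For Runx1 (0.16, SE 0.15), Bhlhe41 (-0.36, SE 0.16) and Cbfb (-0.57, SE 0.24) it was not, though Bhlhe41 passed at 10000 UMIs (-0.48, adjusted p = 0.00437) and without dKO XY replicate 1 (-0.60, adjusted p = 0.0324), and Runx1 at 10000 UMIs (0.40, adjusted p = 0.0116). Cells with Foxl2 in dKO XY lay mostly in the feminized subclusters (86.3% and 85.0%), so the split there also divides these from the Sertoli-like cells. In dKO XY, Irx3 had 69 and 59 UMIs in cells with Foxl2 and 175 and 148 in the others. The few dKO XY cells of the ovary's cluster carried a large part of the Irx3 UMIs. They were not set apart here, and their part in the Irx3 difference was not tested.

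**Figure D5:**
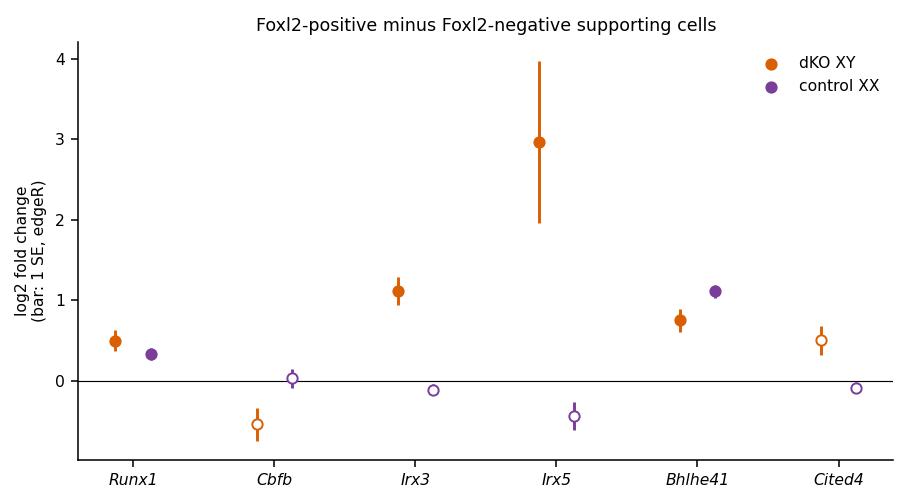
Log2 fold change of the other members between supporting cells with and without a Foxl2 UMI (vertical axis, edgeR, bars of 1 SE) in dKO XY and control XX, filled where the adjusted p was under 0.05. Irx3 was at 1.12 in dKO XY and -0.11 in control XX, and Bhlhe41 at 0.75 and 1.11.

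The genes with the pattern most like each member over 48 sums of a cell type and library were listed as a description, by Pearson correlation of log2(CPM + 1) among 11182 genes. These sums share libraries and depth. They include erythroid cells where a library held at least 10, which the order of levels left out. The part of these cells in the likeness of Cited4 and Gata1 was not tested. Foxl2 was followed by Cntn4 (0.80), Kctd14 (0.78) and Fst (0.77), Runx1 by Sorl1 (0.83), Ptprj (0.82) and Prkcd (0.81), and Irx3 by Lzts1, Csgalnact1 and Tnfrsf19 (0.81 each). Irx5 was followed by its neighbour Irx3 (0.88), then Kank3 and Efna1 (0.85 each). Bhlhe41 was followed by Sphk2 (0.80), Smpx and Stim1 (0.78 each), Cited4 by Gata1 (0.85), Slc25a21 (0.83) and Adk (0.80), and Cbfb by Tm9sf3 (0.87), Zfp275 (0.83) and Nxt2 (0.81). Among the members themselves Foxl2 and Bhlhe41 had a correlation of 0.72 and Foxl2 and Runx1 one of 0.39.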

How the data were processed

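Single cells were captured with the 10x Genomics system, and the count matrices (whole UMI counts per gene and cell) were deposited by the authors. Per the study's methods, reads were aligned and counted with Cell Ranger and barcode swapping between libraries was corrected. The submitters' processing notes list mm10 and Seurat 4.0.

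Barcodes with over 2500 and under 9000 genes detected, at most 25% mitochondrial and at most 20% Hbb UMIs were kept. They were clustered with Seurat 5.3.0 (3000 variable genes less the members and listed genes, 42 in all, 20 dimensions, resolution 0.21), and supporting cells were divided further (Sycp3 and Tcf21 log level under 1, 8 dimensions, resolution 0.25). A cluster was named from marker lists. No cells were removed as doublets, and the 8% with the highest doublet score were left out as an alternative.

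UMIs were summed per library and type (at least 10 cells) and tested with edgeR 4.0.16 (TMM, filterByExpr, quasi-likelihood test, all groups in the fit, Benjamini-Hochberg adjustment over all genes tested), with DESeq2 1.42.0 as an alternative, in R 4.3.3. On simulated counts of the supporting comparison (15946 genes) 97.8% of genes changed by 2 and 80.7% of genes changed by 1 on the log2 scale were recovered, and 5.35% of calls were false (11.4% for the Sertoli-like comparison, 14741 genes, and 11.6% for the difference between supporting and interstitial cells, 17364 genes). Single cells were thinned to 5000 UMIs. Shares carry Wilson 95% intervals, and ratios over 1 to 3 UMIs exact counting intervals; both cover counting error only. A fold against a group at 0 used a floor of 3 UMIs over the group. The study tested across cells, whereas here the library was the unit, with 2 per group, so that p-values measure the spread between these libraries. The fit of Sertoli-like, feminized and granulosa-like cells took 2 sums from each dKO XY library as separate, with no library term. Its p-values thus rest in part on the spread within libraries and may be too small. Germ cells were not compared between dKO XY and control XY, since control XY held too few.

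The members were named throughout, with up to 6 genes per list with the largest change among those called in dKO XY supporting cells (1 of them is not reported here), the partners Sox9, Sox8, Dhh and Cst9, Amh and Inhbb, and 3 genes per member with the most similar pattern. Fst was named after its values were seen. The members and lists were chosen with earlier results of these data known. The fits without the third supporting cluster, with both control XX subclusters, by interstitial cluster and with crossed replicate numbers, and the difference between the Foxl2 splits, are alternatives chosen after the data were seen. Of the relatives, Foxl1, Runx3, Irx1, Irx4 and Irx6 were too low to be tested, and Foxl2os was not matched by symbol.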

Additional observations from a re-analysis of the deposited data

Results flagged for a closer look

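Of 7 members tested for a difference between supporting and interstitial cells 2 passed the threshold, where 8.49% of all genes differed upward and 11.6% downward, and of 6 tested for a difference between the Foxl2 splits 3 passed, where 5.25% of all genes were higher. The change of Runx1 between dKO XY and control XY was larger in supporting than in interstitial cells by 3.84 on the log2 scale (adjusted p = 3.11e-06, edgeR), with Runx1 rising from 3.29 and 6.27 CPM to 10.9 and 10.3 CPM in interstitial cells. That of Cbfb differed by -0.50 (adjusted p = 0.0037), with Cbfb at 47.4 and 52.9 CPM in control XY and 47.8 and 48.9 CPM in dKO XY interstitial cells. Between supporting cells with and without Foxl2, the difference was larger in dKO XY than in control XX for Irx3 by 1.23 (adjusted p = 6.47e-06), for Irx5 by 3.40 (adjusted p = 0.0279) and for Cited4 by 0.59 (adjusted p = 0.0462). The difference for Irx5 rests on 8 UMIs in dKO XY at this depth. For Irx5 it was 1.88 at 10000 UMIs and 4.19 without dKO XY replicate 2. The calls on Irx5 and Cited4 were lost in most alternatives.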

How the results depend on the processing

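Of the values of the members under the alternatives, 719 kept their direction and their side of the threshold, 60 lost a call, 8 gained one and 12 changed sign. With 1 library left out at a time, the count of genes called between dKO XY and control XY, given first for all libraries and then as a range, was 2621 in supporting cells (1149 without control XY replicate 2 to 2800), 2088 in Sertoli-like cells (985 without control XY replicate 2 to 2026), 1174 in interstitial cells (310 without control XY replicate 1 to 1220) and 3497 for the difference between supporting and interstitial cells (1880 without dKO XY replicate 2 to 3600). It was 7788 between control XX and control XY (5523 to 7787), 6538 between dKO XY and control XX (5154 to 6533) and 4669 between feminized and granulosa-like cells (3126 to 4678). Without the filter on low counts 3549, 2823 and 1752 genes were called between dKO XY and control XY in supporting, Sertoli-like and interstitial cells. In interstitial cells 2 were called within the cluster of control XX and 1656 without it. With the replicate number as a block 2239, 2134 and 710 genes were called in supporting, Sertoli-like and interstitial cells, so that the interstitial count fell by more than 1.5 times. Same-numbered libraries did not deviate together (r = -0.006 for dKO XY with control XY, -0.174 for dKO XY with control XX), so the numbers were not taken as pairs; between dKO XY and control XX the block gave 5764 calls and crossed numbers 7716. The split by Foxl2 in dKO XY called 1618 genes (990 without dKO XY replicate 1 to 1621) and 3504 at 10000 UMIs. The share with Foxl2 and Sox9 in dKO XY was 5.23% (5.08 to 5.37 in single libraries), 9.27% at 10000 UMIs, 22.8% without thinning and 0.527% with at least 2 UMIs of each. The last was 0.847% (11 cells) in library 1 and 0.207% (2 cells) in library 2. Within the interstitial cluster of control XX, Runx1 was at -1.30 in dKO XY and -0.069 in control XX and Cbfb at -0.028 in control XX, where the values over the whole class had passed the test. The other changes of sign were met where the main value had not passed: in the difference between supporting and interstitial cells Foxl2 ranged from -1.42 to 1.13 with 1 library left out (0.16 without dKO XY replicate 1) and was at 0.040 without high doublet scores, and Irx3 ranged from -0.47 without control XY replicate 2 to 2.02; Cbfb in interstitial cells was at 0.024 without control XY replicate 2; in the control XX split Cbfb was at -0.14 with 10000 UMIs and -0.038 without high doublet scores, and Cited4 ranged from -0.17 to 0.022 without control XX replicate 1; in the difference of the splits Runx1 ranged from -0.12 without dKO XY replicate 1 to 0.46; and Sox9 in supporting cells was at 0.23 without the third supporting cluster. The cause was not tested. With 2 libraries per group, 1 library can decide a call, and members with few UMIs, Irx5 above all, are the least precise.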
